A study of Mus musculus with 6 samples.

Results

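The genes described here are 30 mouse genes of homologous recombination, the Fanconi anaemia pathway, mismatch repair and the DNA damage checkpoint, taken by name from 32903 gene symbols with values. They were followed in MuTuDC1940, an immortal line of mouse dendritic cells with features of type 1 conventional dendritic cells, the subset that presents engulfed antigen to CD8 T cells. The cells were left untreated or were given poly(I:C), a synthetic double-stranded RNA that mimics viral RNA, at 5 µg/ml for 18 hours. The untreated and the treated group share the same line and differ in the labels by the treatment alone. Of 3 samples per group, 2 libraries per group were used, headed NT01 and NT02 (untreated) and PolyIC01 and PolyIC02 (treated), because the table's header leaves the group of the remaining columns open. Each library holds polyadenylated RNA as TPM (each transcript's share of the library, divided by its length and scaled to a sum of 1000000), so levels can be compared between genes, but the sequencing depth is unknown.

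Homologous recombination repairs a DNA break by copying the sister chromatid, which exists only after replication, so many of its genes are most active in S and G2 phase. Broken ends are first cut back, BRCA1 and BRCA2 with their partners then load a recombinase on the exposed strand, and helicases undo the joined molecules afterwards. The Fanconi anaemia proteins act with this machinery at DNA crosslinks, mismatch repair corrects errors left by the replication fork, and the kinases ATM and ATR report damage to the cell cycle through CHEK2 and CHEK1.

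Most of these genes were lower after poly(I:C), and the fall was uneven between roles. All 30 passed the expression limit, 0.5 TPM as the mean of the 4 libraries, and each group's own mean was above that limit for all 30. A gene was said to rise or fall where limma gave an adjusted p under 0.05 (Benjamini-Hochberg over 12520 genes). Of the 30 genes 22 fell (73.3%), against 32.4% of all tested genes, 3 rose, against 28.4%, and 5 did not pass, so that 25 changed in either direction, against 60.8%. A called fall with a log2 fold change of -1 or lower was seen in 7 of the 30, against 2.76% of all tested genes. With a pseudocount of 0.1 in place of 1 the same count was 11, against 4.41% of all tested genes. With a pseudocount of 1 the count was lower without NT01 and higher without NT02. The median log2 fold change of the 30 genes was then -0.64 without NT01 and -0.77 without NT02. With all 4 libraries the median log2 fold change was -0.73, beside -0.015 over all tested genes. The summed level of the 30 genes was 701 TPM in NT01 and 654 TPM in NT02, and 512 TPM in PolyIC01 and 498 TPM in PolyIC02. Treated values lay below untreated ones without overlap for 24 genes (42.4% of all tested genes), above them for 4 (38.9%), and overlapped for Fancc and Atr; over all tested genes 81.3% showed no overlap in either direction. In bulk RNA, fewer cells that express a gene and less RNA per cell cannot be told apart. Nothing in the labels says that the libraries came from separate cultures, so the p-values measure the spread between these libraries alone, and an exact permutation test of 2 libraries against 2 cannot go below p = 0.333 (two-sided).

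**Figure D1:**
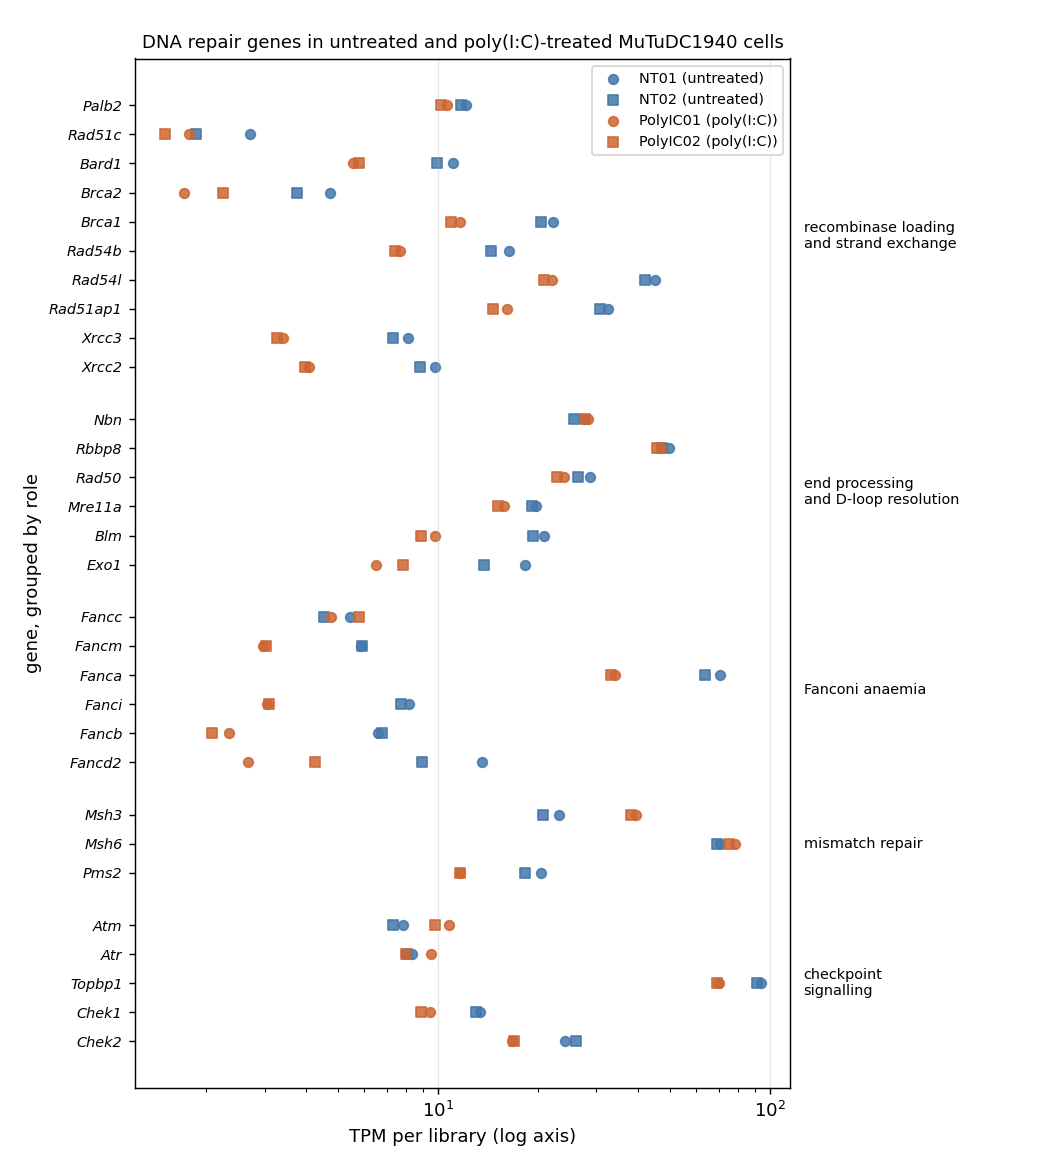
Level of each of the 30 genes in TPM (log axis) in the 2 untreated libraries (blue) and the 2 treated libraries (orange), with genes grouped by role; each point is 1 library. The treated points lie left of the untreated ones for 24 genes and right of them for Nbn, Msh3, Msh6 and Atm.

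The libraries were those of a dendritic cell line by their markers. Of 10 markers of type 1 dendritic cells 5 rose, 3 fell and 2 did not pass, and their summed level was 3849 and 3791 TPM untreated and 3918 and 3979 TPM treated. Irf8, the transcription factor that sets up these cells, was at 2482 and 2477 TPM untreated and 2558 and 2639 TPM treated, and Xcr1, a chemokine receptor of this subset, was at 194 and 191 TPM and at 335 and 326 TPM, while Itgae, another of the 10, was between 0.490 and 0.918 TPM. The 3 that fell were Itgax, from 369 and 348 TPM to 216 and 220.0 TPM, Flt3, from 9.13 and 9.91 TPM to 5.62 and 5.003 TPM, and Batf3, from 145 and 143 TPM to 114 and 119.6 TPM. Among markers of other cell types, Cd3e and Cd3g (T cells), Ly6d (plasmacytoid dendritic cells) and Pdgfrb (fibroblasts) were listed at 0 in all 4 libraries. Other markers of the same lists were present. Of the plasmacytoid list, Tcf4 was at 8.06 and 6.40 TPM untreated and 6.75 and 6.22 TPM treated. Siglech was between 0.228 and 0.494 TPM. The summed level of 7 macrophage and monocyte markers went from 228 TPM in both untreated libraries to 117 and 126 TPM, most of it Lyz2, which fell from 218 and 217 TPM to 98.9 and 107 TPM. Of the 4 tested genes of that list 2 rose, Fcgr1 from 0.356 and 0.299 TPM to 4.76 and 4.66 TPM and Cd14 from 8.06 and 8.37 TPM to 12.2 and 12.0 TPM. The summed level of 4 plasmacytoid dendritic cell markers went from 183 and 185 TPM to 1287 and 1260 TPM, most of it Bst2, which interferon also induces. The summed level of T cell markers was 1.01 and 0.678 TPM untreated and 1.59 and 1.47 TPM treated, all of it Cd3d, which rose (limma, adjusted p = 0.0187). That of B cell markers was 3.34 and 3.79 TPM untreated and 7.01 and 5.89 TPM treated, most of it Ms4a1, which rose (limma, adjusted p = 0.00192). That of epithelial and fibroblast markers was 9.26 and 10.5 TPM untreated and 7.53 and 7.58 TPM treated, most of it Epcam, which fell. The part of these markers in the results was not tested. Library pairs of the same group had a Pearson's r of 0.997 over log2(TPM + 1) of the tested genes, and pairs across groups 0.956 to 0.959; these are correlations across genes, which are not independent replicates.

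Of the 30 genes, 23 have a promoter window in the RefSeq table used (from 250 bases before to 50 after the annotated start, build GRCm38.p6). The windows were searched on both strands for the E2F motif, the site of the transcription factors that switch on S phase genes, spelled TTTCCCGC, TTTCGCGC, TTTGCCGC or TTTGGCGC. It was found in 7 of the 23 genes, 30.4%, where 2.61% of all 27025 genes with a window hold it. Of the 7, Bard1, Brca2, Chek2 and Topbp1 fell, Msh3 and Msh6 rose and Rad51c did not pass, so the motif was present in genes of either direction. The CHR motif of mitotic genes (TTTGAA) was found in Bard1 alone, against 20.2% of all genes, and the interferon-response motif (GAAA, any pair of bases, GAAA) in Brca2 and Chek1, against 3.99%. Stretches around the E2F letters of 5 genes that passed are shown 5′ to 3′ on the strand of the gene, with the matched letters in capitals (GCGGGAAA and GCGCGAAA are 2 of the spellings read on the other strand). The match of Msh6 begins 15 bases after the annotated start. Those of Bard1, Brca2, Chek2 and Topbp1 begin between 129 and 209 bases before the annotated start used for the window. RefSeq places the first base of Brca2, Chek2 and Topbp1 further upstream, at 150522297, 110839800 and 103305167. Their matches therefore lie within the gene as RefSeq spans it, and only that of Bard1 lies outside its gene. A match is a string of letters and not a measured site.
Bard1, chr1:71103163-71103192 (minus strand), fell: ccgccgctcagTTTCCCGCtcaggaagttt
Brca2, chr5:150522423-150522490 (plus strand), fell: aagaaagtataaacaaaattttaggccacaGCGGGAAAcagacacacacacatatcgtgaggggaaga
Chek2, chr5:110839801-110839868 (plus strand), fell: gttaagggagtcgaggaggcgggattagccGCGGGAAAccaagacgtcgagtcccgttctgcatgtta
Topbp1, chr9:103305187-103305216 (plus strand), fell: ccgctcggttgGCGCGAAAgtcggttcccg
Msh6, chr17:87975054-87975083 (plus strand), rose: ctcctcccgacTTTCCCGCcagcggcggcc

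Most of the genes that load the recombinase and drive strand exchange fell. Of 10 genes 9 fell, against 32.4% of all tested genes. The median log2 fold change of the 10 was -0.90. Their summed level in treated cells was 0.525 times that in untreated cells. Brca1, whose product recruits the loading machinery to resected ends, read 22.2 and 20.4 TPM untreated against 11.6 and 11.0 TPM treated. On the log2 scale Brca1 fell by 0.86 with an SE of 0.066 (limma, adjusted p = 0.000167), and the groups lay far apart against the spread within each. Bard1, its obligate partner in a ubiquitin ligase, went from 11.1 and 9.94 TPM to 5.54 and 5.76 TPM (log2 fold change -0.79). The ratio of Brca1 to Bard1 was 2.00 and 2.05 untreated and 2.10 and 1.91 treated, so the partners fell in proportion and the ratios of the groups overlapped.

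Brca2, which loads the recombinase on single-stranded DNA, was low and went from 4.72 and 3.75 TPM to 1.71 and 2.25 TPM (log2 fold change -0.81 with SE 0.139, limma adjusted p = 0.00394). Palb2, the bridge between BRCA1 and BRCA2, had the smallest of the 22 falls, with 12.1 and 11.7 TPM untreated and 10.6 and 10.2 TPM treated. Its log2 fold change of -0.18 passed narrowly (adjusted p = 0.0460 in limma), and the call was lost without NT01 (adjusted p = 0.136), without NT02 (adjusted p = 0.0734), without PolyIC01 (adjusted p = 0.123) and without PolyIC02 (adjusted p = 0.222). The ratio of Brca2 to Palb2 was 0.389 and 0.319 untreated and 0.161 and 0.220 treated, without overlap. For this and the later ratios, how often other gene pairs separate between the groups was not counted.

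Xrcc2, Xrcc3 and Rad51c, relatives of the recombinase that help its filaments to form, did not share 1 size of change. Xrcc2 went from 9.79 and 8.85 TPM to 4.08 and 3.97 TPM (log2 fold change -1.04 with SE 0.080, limma adjusted p = 0.000172). Xrcc3 went from 8.09 and 7.31 TPM to 3.41 and 3.26 TPM (-1.004, adjusted p = 0.000235). Rad51c, the partner of XRCC3 in a complex, had the lowest mean level of the 30 genes over the 4 libraries, at 2.71 and 1.86 TPM untreated and 1.78 and 1.504 TPM treated, and did not pass (log2 fold change -0.30 with SE 0.149, limma adjusted p = 0.128). The ratio of Xrcc3 to Rad51c was 2.98 and 3.92 untreated and 1.91 and 2.17 treated, without overlap. Without NT02, whose value lies close to the treated ones, Rad51c passed (adjusted p = 0.0145 in limma, log2 fold change -0.49).

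The genes of the motor and accessory proteins fell by similar amounts. Rad54l, a motor that helps the filament to invade the intact duplex, went from 45.1 and 41.9 TPM to 22.1 and 20.9 TPM (log2 fold change -0.98 with SE 0.057, limma adjusted p = 5.71e-05). Its relative Rad54b went from 16.4 and 14.4 TPM to 7.69 and 7.40 TPM (-0.94). The ratio of Rad54b to Rad54l was between 0.344 and 0.362 in all 4 libraries. Rad51ap1, which stimulates the joining of the strands, went from 32.5 and 30.7 TPM to 16.1 and 14.6 TPM (-0.99). The treated values of these 3 genes lay below the untreated ones without overlap, as in 42.4% of all tested genes.

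**Figure D2:**
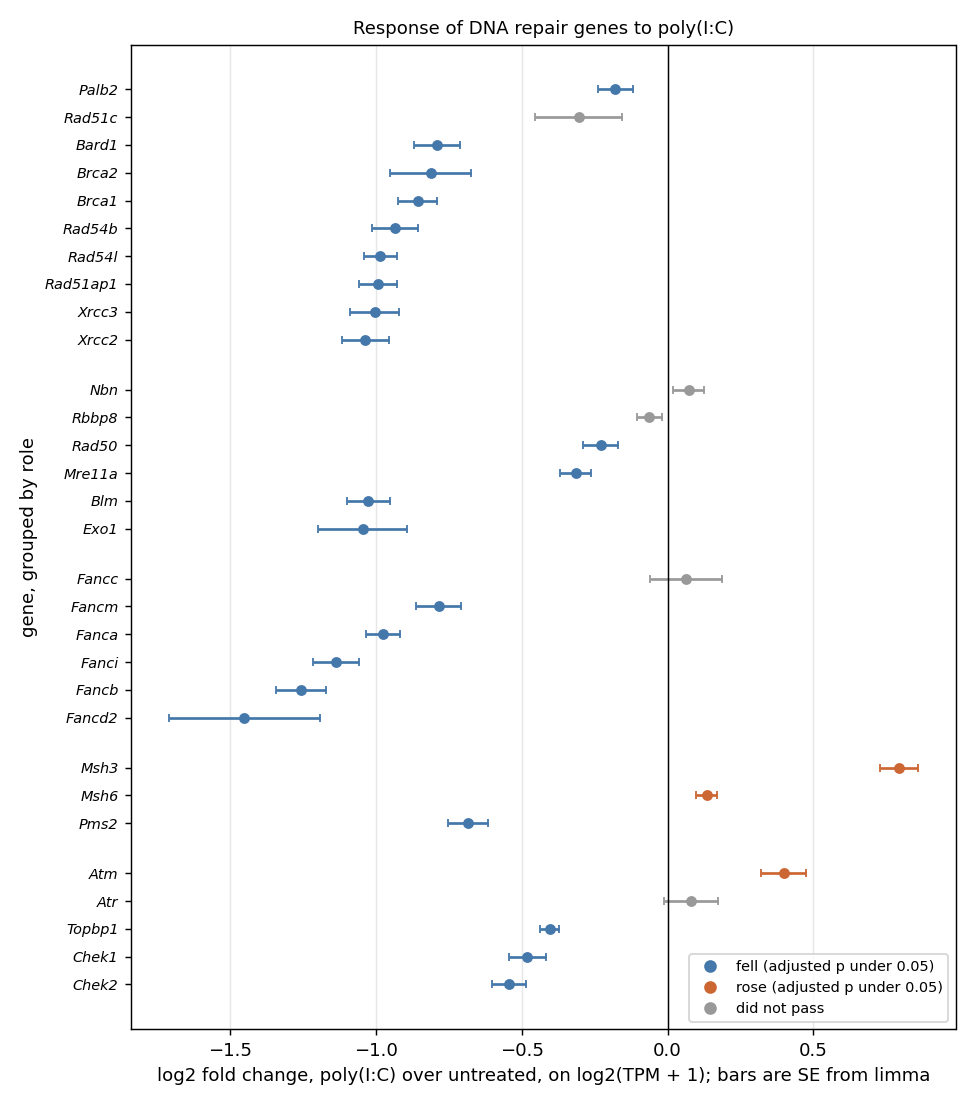
Log2 fold change of each of the 30 genes (poly(I:C) over untreated, log2(TPM + 1) scale, n = 2 libraries per group), with the SE from limma as bars and the call as colour. Most strand exchange and Fanconi genes lie between -0.79 and -1.45, the end-sensing genes lie between -0.32 and 0.073, and Msh3 lies alone at 0.79.

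Among genes of end processing, those that sense and first cut the end lay between -0.32 and 0.073 on the log2 scale, while the long-range nuclease and the helicase lay below -1. Exo1, the nuclease that extends resection and also serves mismatch repair, went from 18.2 and 13.7 TPM to 6.51 and 7.85 TPM (log2 fold change -1.05 with SE 0.152, limma adjusted p = 0.00263). Blm, the helicase that unwinds ends and dissolves joined molecules, went from 20.8 and 19.3 TPM to 9.82 and 8.86 TPM (-1.03, SE 0.074, adjusted p = 0.000129). Neither gene's groups overlapped, with treated values below, as in 42.4% of all tested genes. A predicted transcript held between 82.5% and 93.2% of the TPM of Exo1 in the 4 libraries.

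The 3 genes of the MRE11 complex, the first sensor of a break, differed from these in size. Mre11a, its nuclease, went from 19.8 and 19.2 TPM to 15.8 and 15.2 TPM (log2 fold change -0.32, adjusted p = 0.00393 in limma). Rad50, its ATPase, went from 28.6 and 26.4 TPM to 23.9 and 22.7 TPM (-0.23, adjusted p = 0.0187), a call lost without NT01 (adjusted p = 0.0577) and without PolyIC02 (adjusted p = 0.0925). Nbn, the subunit that binds ATM, was at 27.6 and 25.6 TPM untreated and 28.3 and 27.7 TPM treated (0.073, SE 0.053, adjusted p = 0.281). The ratio of Rad50 to Mre11a went from 1.45 and 1.38 to 1.52 and 1.4999, without overlap. The ratio of Nbn to Mre11a went from 1.39 and 1.34 to 1.79 and 1.83, without overlap. Rbbp8, which encodes the CtIP protein that starts resection with this complex, was at 49.7 and 47.4 TPM untreated and 47.1 and 45.8 TPM treated (-0.062, SE 0.043, adjusted p = 0.253). The differences in size between these genes were not tested, and their ratios have no background of other gene pairs.

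The lower level of Mre11a lay in its predicted transcripts and not in the curated ones. The curated transcripts of Mre11a summed to 11.0 and 12.3 TPM untreated and 13.1 and 13.5 TPM treated, whereas the predicted ones summed to 8.82 and 6.91 TPM and to 2.65 and 1.69 TPM. With curated transcripts alone the log2 fold change of Mre11a was 0.18 (adjusted p = 0.110 in limma), opposite in direction to the value of the whole gene. For Rbbp8 the curated transcripts alone rose by 0.24 (adjusted p = 0.0288 in limma). How reads are shared between transcripts of 1 gene is an estimate, and its error is not in the table.

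Fanconi anaemia genes held the deepest falls of the 30, those of Fancd2, Fancb and Fanci, whose treated values were all under 5 TPM. Of 6 genes 5 fell, against 32.4% of all tested genes. The median log2 fold change of the 6 was -1.06. Their summed level in treated cells was 0.487 times that in untreated cells. Fancd2, which is ubiquitinated at a crosslink and clamps DNA together with FANCI, went from 13.5 and 8.95 TPM to 2.68 and 4.25 TPM (log2 fold change -1.45 with SE 0.259, limma adjusted p = 0.00825). It had the largest SE of the 30 genes. Its groups did not overlap, with treated values below, as in 42.4% of all tested genes. Fanci went from 8.18 and 7.72 TPM to 3.04 and 3.09 TPM (-1.14, SE 0.077, adjusted p = 0.000104). The ratio of Fancd2 to Fanci was 1.65 and 1.16 untreated and 0.880 and 1.37 treated, overlapping between groups.

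Fanca, Fancb and Fancc belong to the core complex that places that ubiquitin, and Fancm anchors the complex to DNA. Fanca had the highest level of the 6 genes in every library and went from 70.8 and 63.7 TPM to 34.2 and 33.1 TPM (log2 fold change -0.98 with SE 0.059, limma adjusted p = 6.36e-05). Fancb, a subunit of its catalytic module, went from 6.58 and 6.76 TPM to 2.34 and 2.09 TPM (-1.26, SE 0.086, adjusted p = 0.000107). The ratio of Fancb to Fanca went from 0.0929 and 0.106 to 0.0684 and 0.0630, without overlap. Fancm went from 5.86 and 5.91 TPM to 2.96 and 3.03 TPM (-0.79, adjusted p = 0.000439).

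Fancc did not follow them, with 5.44 and 4.54 TPM untreated and 4.75 and 5.79 TPM treated, overlapping groups and no call in limma (log2 fold change 0.063 with SE 0.122, adjusted p = 0.678). Without NT02 (-0.045) and without PolyIC02 (-0.057) the value of Fancc lay on the other side of 0, with adjusted p = 0.791 and 0.762 in limma. The curated transcripts of Fancc, at 2.18 and 2.36 TPM untreated and 1.39 and 1.51 TPM treated, fell when taken alone (log2 fold change -0.41, adjusted p = 0.0253 in limma). The call for Fanci was lost with curated transcripts alone (-0.61, adjusted p = 0.271), which held 24.2% and 60.2% of its TPM in the untreated libraries and 35.6% and 79.4% in the treated ones, so the split between its transcripts differed within each group.

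**Figure D3:**
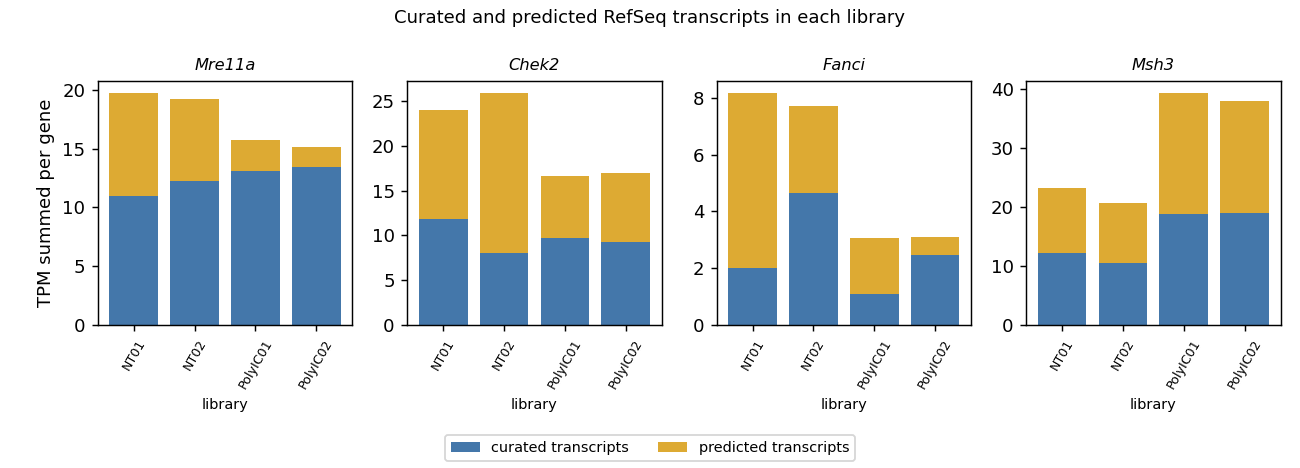
TPM of Mre11a, Chek2, Fanci and Msh3 in each library, stacked as the sum over curated RefSeq transcripts (blue) and over predicted ones (yellow). The blue part of Mre11a is higher in both treated libraries than in both untreated ones, the blue part of Chek2 overlaps between groups, and both parts of Msh3 are higher after poly(I:C).

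The mismatch repair genes moved in both directions. Msh3, whose product recognises larger insertion and deletion loops, was at 23.2 and 20.7 TPM untreated and at 39.4 and 38.1 TPM treated. Msh3 rose 1.76-fold in mean TPM, the largest rise among the 30 genes (log2 fold change 0.79 with SE 0.065, limma adjusted p = 0.000207). Treated values of Msh3 lay above untreated ones without overlap, as in 38.9% of all tested genes. Its curated transcripts (12.1 and 10.5 to 18.8 and 19.0 TPM) and its predicted ones (11.1 and 10.2 to 20.6 and 19.0 TPM) were both higher. Msh6, whose product recognises single mismatches, was at 70.6 and 69.1 TPM untreated and 78.3 and 75.3 TPM treated (log2 fold change 0.13, adjusted p = 0.0205 in limma). The call for Msh6 did not hold when NT02 (adjusted p = 0.0667) or PolyIC01 (adjusted p = 0.124) was left out.

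The ratio of Msh3 to Msh6 went from 0.329 and 0.299 to 0.503 and 0.505, without overlap between groups. Pms2, an endonuclease subunit that cuts the strand with the error, fell from 20.4 and 18.3 TPM to 11.7 TPM in both treated libraries (-0.68, SE 0.070, limma adjusted p = 0.000492).

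Apart from Msh3, 13 of the genes have a protein-coding neighbour that starts within 1000 bases on the opposite strand (GENCODE M21, GRCm38), and 12 of those neighbours were tested. Which neighbours to name was decided with their values known. The libraries were stranded, but the sources used here do not say whether the quantification used strand, so reads of genes that overlap may have been shared. Of the 10 fallen repair genes among these, 3 had a neighbour that also fell, 3 a neighbour that rose and 4 a neighbour that did not pass. Of the 12 neighbours 3 fell and 3 rose, neither a larger share than over all tested genes (32.4% and 28.4%). Fancb and Mospd2, 217 bases apart on chromosome X, moved in opposite directions, Mospd2 going from 71.9 and 69.0 TPM to 101 and 98.9 TPM (log2 fold change 0.50, adjusted p = 0.000118 in limma). Brca1 and Nbr1, 194 bases apart on chromosome 11, did so too, with Nbr1 at 26.9 TPM in both untreated libraries and at 31.3 and 30.9 TPM in the treated ones (0.20, adjusted p = 0.00876). Pms2 and Aimp2, 117 bases apart on chromosome 5, fell together, Aimp2 from 88.2 and 93.5 TPM to 63.7 and 64.2 TPM (-0.50, adjusted p = 0.000183). Atm rose while Npat, 307 bases away on chromosome 9, did not pass (-0.049, adjusted p = 0.565).

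**Figure D4:**
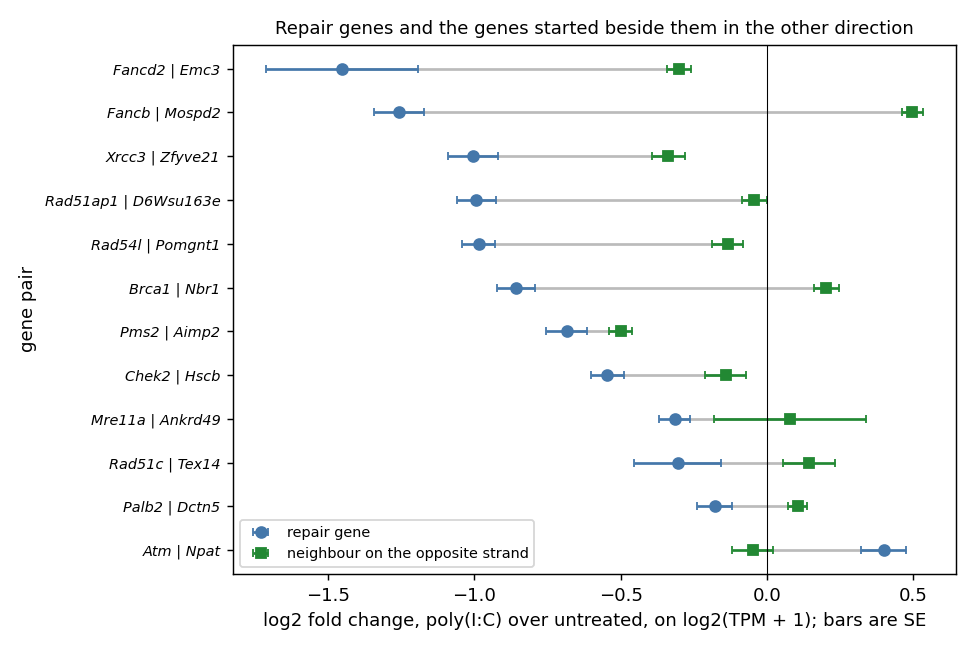
Log2 fold change (log2(TPM + 1) scale, bars are SE from limma) of 12 repair genes (blue circles) and of the tested gene that starts within 1000 bases on the opposite strand (green squares). Pms2 and Aimp2 lie close together at -0.68 and -0.50, and Fancb and Mospd2 lie farthest apart at -1.26 and 0.50.

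Of the checkpoint genes, the kinase gene Atm rose, Atr did not pass, and the genes of their targets and of the activator of ATR fell. Atm, the kinase activated by double-strand breaks, went from 7.82 and 7.30 TPM to 10.8 and 9.81 TPM (log2 fold change 0.40 with SE 0.077, limma adjusted p = 0.00630). Its target kinase Chek2 went from 24.1 and 26.0 TPM to 16.7 and 17.0 TPM (-0.54, SE 0.058, adjusted p = 0.000576), and the ratio of Chek2 to Atm went from 3.08 and 3.56 to 1.55 and 1.73. The fall of Chek2 was not seen in its curated transcript, at 11.8 and 7.96 TPM untreated and 9.66 and 9.28 TPM treated (log2 fold change -0.034, limma adjusted p = 0.886), which held between 30.7% and 57.9% of its TPM.

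Atr, the kinase of stalled replication forks, was at 8.33 and 8.08 TPM untreated and 9.50 and 8.02 TPM treated, with overlapping groups (log2 fold change 0.080 with SE 0.092, limma adjusted p = 0.485). The value of Atr was -0.030 without PolyIC01 and 0.19 without PolyIC02 (limma, adjusted p = 0.836 and 0.174). Chek1, the target kinase of ATR, fell from 13.4 and 12.99 TPM to 9.46 and 8.87 TPM (-0.48, SE 0.064, adjusted p = 0.00144). Topbp1, the activator of ATR, had the highest untreated level of the 30 genes and fell from 93.7 and 91.1 TPM to 70.0 and 69.1 TPM (-0.40, SE 0.032, adjusted p = 0.000194). The ratio of Chek1 to Atr was 1.61 in both untreated libraries and 0.996 and 1.11 in the treated ones.

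Other genes of the same pathways were taken from lists, and their counts stand beside the 32.4% that fell and the 28.4% that rose over all tested genes. Of 27 further recombination genes 13 fell (48.1%) and 4 rose, and 10 did not pass. Their median log2 fold change was -0.21. The deepest fall was that of Hrob, which helps to load the MCM8 and MCM9 helicase, from 12.9 and 12.4 TPM to 4.45 and 3.93 TPM (log2 fold change -1.39), and the largest rise that of Top3a, the topoisomerase partner of BLM, from 15.3 and 15.1 TPM to 18.6 and 18.4 TPM (0.27). Of 15 genes of resection and of ubiquitin signalling at breaks 6 fell, a share near that of all tested genes, and 0 rose in limma (0 also at an unadjusted p under 0.05), led by H2ax, the histone variant marked at breaks, from 361 and 374 TPM to 109 and 117 TPM (-1.69). Of 13 further Fanconi genes 9 fell (69.2%) and 0 rose in limma (0 at an unadjusted p under 0.05), led by Ube2t, the ubiquitin-conjugating enzyme of FANCD2, from 65.4 and 64.9 TPM to 32.8 and 32.9 TPM (-0.97).

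Of 8 further mismatch repair genes 7 fell (87.5%) and 0 rose in limma (1 at an unadjusted p under 0.05). These falls were small, with a median log2 fold change of -0.28 over the 8 genes and a deepest value of -0.45. The number that fell was 4 without NT01 and 4 without PolyIC02, and 1 rose without NT02. Of 14 further checkpoint genes 7 fell and 2 rose. Cdc25c, the phosphatase that opens mitosis, fell from 19.6 and 20.2 TPM to 7.19 and 7.07 TPM (log2 fold change -1.36), and Timeless, of the fork protection complex, rose from 93.0 and 87.5 TPM to 166 and 160 TPM (0.85, adjusted p = 3.00e-05 in limma). In the recombination list 2 rose without NT02, 1 without PolyIC01 and 1 without PolyIC02. In the checkpoint list 1 rose without PolyIC01, and in the Fanconi list 1 rose without NT01.

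The other main route of break repair, end joining, which needs no sister chromatid, showed no common direction in the calls of its genes. Of 10 genes tested 2 fell (20%), against 32.4% of all tested genes, 2 rose, against 28.4%, and 6 did not pass. Their median log2 fold change was -0.036. The summed level of the list in treated cells was 0.841 times that in untreated cells. That of the further recombination genes was 0.822 times. Xrcc5, a subunit of the Ku ring that holds broken ends, fell from 3.42 and 3.19 TPM to 1.37 and 1.17 TPM (log2 fold change -0.93). Dclre1c, which encodes the nuclease Artemis, rose from 8.96 and 7.21 TPM to 12.3 and 10.6 TPM (0.46, adjusted p = 0.0203 in limma). The number that rose was 1 without NT02, 0 without PolyIC01 and 1 without PolyIC02. The difference in counts between end joining and recombination genes was not tested.

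Cell cycle genes moved alongside. All 16 genes of G2 and mitosis fell (median log2 fold change -1.01), and their summed level went from 1813 and 1760 TPM to 839 and 818 TPM, 0.464 times the untreated level. The deepest fall was that of Ccnb2, a mitotic cyclin, from 142 and 143 TPM to 46.0 and 46.3 TPM (-1.61). Among 16 S phase genes 11 fell and 3 rose (median -0.27), and their summed level in treated cells was 0.783 times that in untreated cells. Rrm2, which makes deoxynucleotides, fell from 498 and 494 TPM to 215 and 213 TPM (-1.21), and Ccne1, the cyclin of S phase entry, rose from 41.8 and 43.2 TPM to 57.5 and 59.2 TPM (0.45). Summed levels of strand exchange (0.525 times) and Fanconi genes (0.487 times) lay nearer to the mitotic list than to the S phase list. Those of end processing (0.820 times) and the checkpoint (0.783 times) lay nearer to the S phase list. Such sums weigh high genes most and join unlike genes. Within end processing, Exo1 (0.449 times) and Blm (0.466 times) lay beside the sum of the mitotic list. Single S phase genes ranged from 0.431 times (Rrm2) to 1.37 times (Ccne1). That range holds Exo1 and Blm too, so their place does not separate the mitotic list from the S phase list. Mre11a, Rad50, Rbbp8 and Nbn were between 0.794 and 1.05 times the untreated level. The summed level of the 3 mismatch repair genes was 1.14 times the untreated level, on the other side of 1 from the mitotic and S phase lists. That sum followed Msh3 (1.76 times) and Msh6 (1.10 times), while Pms2 (0.602 times) fell, as did 7 of the 8 further mismatch repair genes. The part of cell cycle changes in these falls was not tested.

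**Figure D5:**
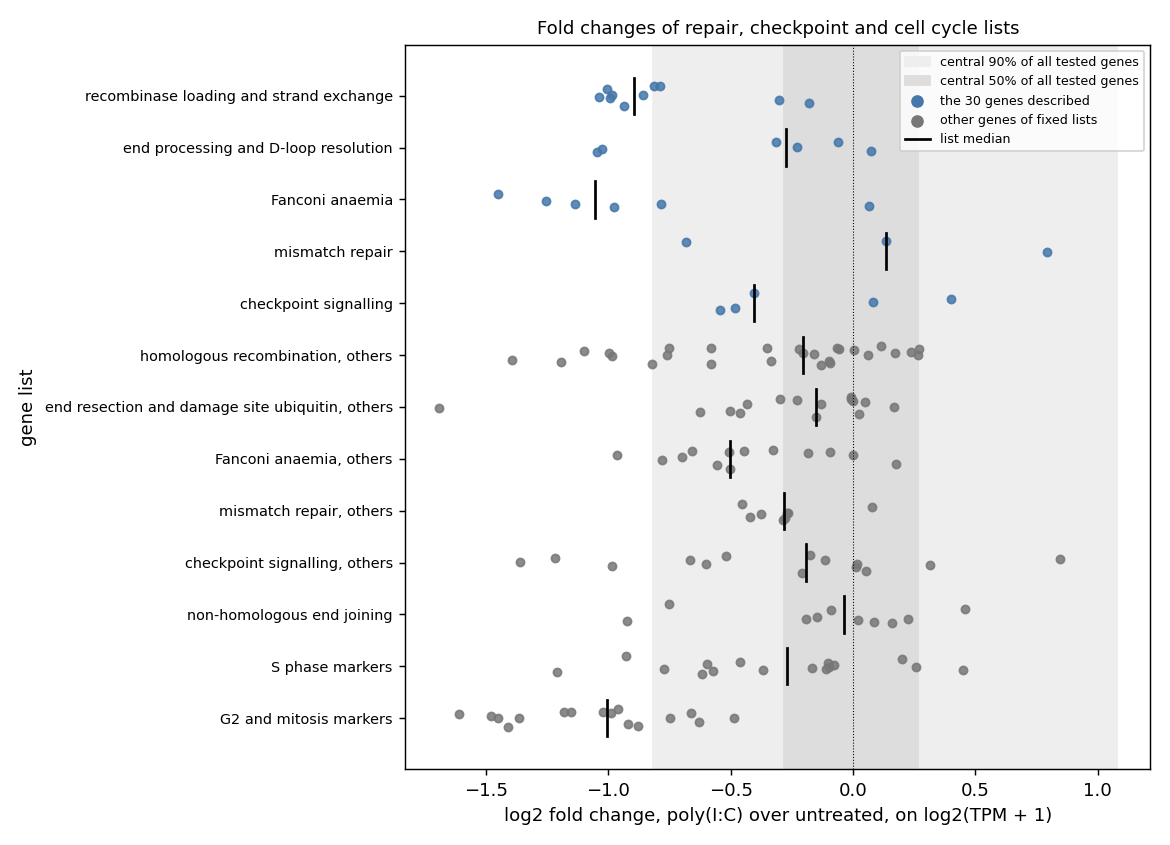
Log2 fold changes (poly(I:C) over untreated, log2(TPM + 1) scale) of the 30 genes by role (blue) and of other genes from lists (grey), with list medians as black bars over the central 50% and 90% of all tested genes (shaded). The strand exchange and Fanconi medians of -0.90 and -1.06 lie beside the median of -1.01 of G2 and mitosis genes, and end joining genes scatter around -0.036.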

How the data were processed

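Polyadenylated RNA was made into libraries with a directional kit, per the labels' protocols. Kallisto 0.42.4, bcl2fastq 2.20.0.422 and GRCm38 are named in the submitters' processing notes, without role or order. The table the authors deposited is named as FPKM, but every column used sums to 1000000, and it was read as TPM of RefSeq transcripts. Since TPM holds no depth, no counting interval was given. Its header gives 5 names to 6 columns of values, with a blank among them. The 4 columns whose group is the same under either reading were used, and 2 columns were not. TPM were summed per symbol by RefSeq accession (GRCm38.p6), which matched 86722 of 107384 transcripts and 91.8% to 92.2% of TPM. Genes averaging 0.5 TPM or more entered limma 3.58.1 under R 4.3.3 (trend, robust) on log2(TPM + 1), a scale that understates changes of low genes, with 2 residual degrees of freedom and Benjamini-Hochberg adjustment over 12520 genes. The script was first tested on simulated data. Ratios, neighbours (GENCODE M21) and promoter windows (RefSeq) were handled in Python 3.11.15 with pandas 2.3.3 and numpy 2.4.6, and plots drawn with matplotlib 3.10.9. Named were all 30 genes and per list the passing gene with the largest rise and the one with the largest fall, except some genes that are not reported here; neighbours were added after their values were seen. The members, lists, pairs and motifs were chosen with earlier results of these data known. Alternatives were another pseudocount, expression limit, moderation, scaling and transcript set, and leaving out each library.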

Additional observations from a re-analysis of the deposited data

How the results depend on the processing

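Under 11 alternatives the number of the 30 genes that fell ranged from 19 (curated transcripts alone) to 23 (quantile normalization), and the number that rose from 2 to 4. Calls and directions of 19 genes were the same under all 11. The share of all tested genes that fell also moved, to 30.8% with curated transcripts alone and 36.1% with quantile normalization. The shares that rose under these settings were 23% and 27.3%. With no expression limit 17% of all tested genes fell and 16.4% rose. With curated transcripts alone, the log2 fold changes of Mre11a (0.18), Nbn (-0.089), Rbbp8 (0.24), Fancc (-0.41) and Atr (-0.087) lay on the other side of 0, and the cause was not tested. The same held for Fancc without NT02 (-0.045) and without PolyIC02 (-0.057; range over single omissions to 0.18) and for Atr without PolyIC01 (-0.030; range to 0.19). Rad51c passed with quantile normalization (adjusted p = 0.0252 in limma), Msh6 did not in limma without trend and robust moderation (adjusted p = 0.0626), and Palb2 did not with no expression limit (adjusted p = 0.0742) or with curated transcripts alone (adjusted p = 0.488). Leaving out 1 library at a time gave 20 to 22 fallen and 2 to 3 risen genes among the 30. For the 119 tested genes of the other lists 64 to 70 fell (71 with all libraries) and 5 to 12 rose (11 with all libraries), with 5 without PolyIC01 and 7 without PolyIC02; over all tested genes 3402 to 3951 fell and 2722 to 3756 rose. With a library left out, the lone library of its group is assumed to vary like the other group. No paired analysis was possible because the header does not settle which replicate numbers the columns after NT01 carry. Depth is unknown, so how far it limits values under about 5 TPM cannot be given. Such values include those of Rad51c and Brca2 and the treated values of Fancd2, Fancb and Fanci.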
